A study of Mus musculus with 22 samples.

Results

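Diet was compared with chow at lights on. The comparison sets 3 RNA-seq libraries from mice on CDA-HFD against 3 from mice on chow, all killed at zeitgeber time 0 (ZT0, 7 am), when the lights come on. These 6 libraries were chosen by their titles from the 22 of the series. The series holds diet groups at ZT0, ZT6, ZT12 and ZT18, with 3 libraries each, and control groups at ZT0 (3 libraries), ZT6 (2), ZT12 (2) and ZT18 (3). CDA-HFD is a fat-rich feed without choline and with defined amino acids, on which mice develop steatohepatitis and fibrosis, and the controls ate chow. All mice were 20 weeks old, per the labels, which state a start of feeding at 8 weeks and 12 weeks on the diet, while another field of the diet libraries gives 6 months, so the length of feeding is not settled. Strain, sex, genotype and the way the cells were isolated are not stated in the labels. No label says that each library is a separate animal, so p-values measure only how these libraries vary, which may be technical.

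The labels call the cells HSC, which usually stands for hepatic stellate cells. Stellate cells lie between hepatocytes and the sinusoidal endothelium, store retinyl esters, and turn into collagen-making myofibroblasts when the liver is injured. Most liver cells also carry a circadian clock, in which CLOCK and BMAL1 (encoded by Arntl) switch on the genes of their own repressors, the PER and CRY proteins and the nuclear receptors REV-ERB alpha and beta (Nr1d1 and Nr1d2). In mouse liver Arntl is highest around lights on, when Nr1d1 and Dbp are low, and these rise later in the light phase.

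Whole-number read counts per gene were compared, with 20775403 to 28580761 counts in each ZT0 library and 19754805 to 41665623 over all 22. Levels are given as CPM, counts scaled to the library total after TMM adjustment; they are not corrected for gene length, so levels of different genes are not compared. Changes are log2 of diet over control with their standard error, from edgeR's quasi-likelihood test on all 22 libraries, and a gene was called changed at a Benjamini-Hochberg adjusted p under 0.05 over the 22409 genes tested, of 55367 in the table. Leaving scaling factors out moved the median log2 change of all genes at ZT0 to 0.09, from -0.02 as reported. Replicate 2 of control ZT0 stood apart from the other control libraries of that time: its chi-square per degree of freedom was 74.7 and 68.5 against its 2 replicates, which gave 21.0 against each other, and the 3 diet pairs gave 19.8 to 22.1. Adrenal cortex genes were present in other libraries: Hsd3b1 was at 79.2 to 252 CPM in control ZT18, at 92.0 CPM in replicate 2 of control ZT12 and at 99.4 CPM in replicate 1 of diet ZT18, against at most 0.143 CPM in any ZT0 library.

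At ZT0 6719 genes were called (30.0% of those tested), of which 3029 were higher under diet (13.5%) and 3690 lower (16.5%). The balance depends on the scaling and filter, with 3503 higher and 3235 lower with library size as the only scaling, and 3069 and 3026 among genes with a mean of at least 5 CPM. The counts at the other times were 6752 at ZT6 (30.1%), 6641 at ZT12 (29.6%) and 6916 at ZT18 (30.9%). Over 2-fold, 1848 genes rose (8.25%) and 2467 fell (11.0%). The counts of list members called at ZT0 that follow stand beside the shares of 13.5% higher and 16.5% lower over all genes.

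Endothelial genes were lower under diet. All 30 endothelial markers fell, with a median log2 change of -4.25 beside -0.02 over all genes tested. Kdr, the main VEGF receptor, was at 98.9, 91.7 and 83.9 CPM in diet libraries, against 2992, 1895 and 3289.9 CPM in control libraries (log2 change -4.90 ± 0.21, adjusted p = 5.51e-12). The 2 groups did not overlap, as in 42.8% of all genes tested, and replicate 2 was the lowest control library. The VEGF-C receptor gene Flt4 was at 67.6, 51.7 and 52.1 CPM in diet libraries, against 1549.9, 988 and 1591 in control libraries (-4.59 ± 0.21). The junction gene Esam was at 56.7, 61.6 and 53.8 CPM in diet libraries, against 1384, 856 and 1462 in control libraries (-4.43 ± 0.22). Tie1, a receptor-like kinase of endothelial cells, was at 33.1, 34.7 and 23.1 CPM in diet libraries, against 655, 393 and 647 in control libraries (-4.22 ± 0.21). The summed level of the 30 markers was 2661, 2406 and 2125 CPM in diet libraries, against 56113, 32675 and 57872 CPM in control libraries. In bulk RNA, fewer cells of a type and less RNA per cell cannot be told apart.

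Signals that liver endothelium sends to its neighbours fell with it, in 19 of 22 measured genes (median log2 change -2.15), and none rose. Wnt9b, a Wnt ligand of central vein endothelium, was at 0.711, 0 and 0.239 CPM in diet libraries, against 22.1, 5.75 and 14.6 CPM in control libraries (log2 change -5.39 ± 0.73, adjusted p = 7.21e-06). Bmp2, which induces hepcidin in hepatocytes, was at 45.5, 33.8 and 29.6 CPM in diet libraries, against 1075, 461 and 856 CPM in control libraries (log2 change -4.45 ± 0.32, adjusted p = 1.12e-09). The Notch ligand gene Dll4 (-4.35 ± 0.24), Igfbp7 (-3.996 ± 0.20) and the adhesion receptor gene Adgrl4 (-4.05 ± 0.28) fell too. Gpihbp1, which anchors lipoprotein lipase to capillaries, was at 101, 94.8 and 88.4 CPM in diet libraries, against 2114, 1403 and 2224 CPM in control libraries (-4.34 ± 0.22).

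**Figure D1:**
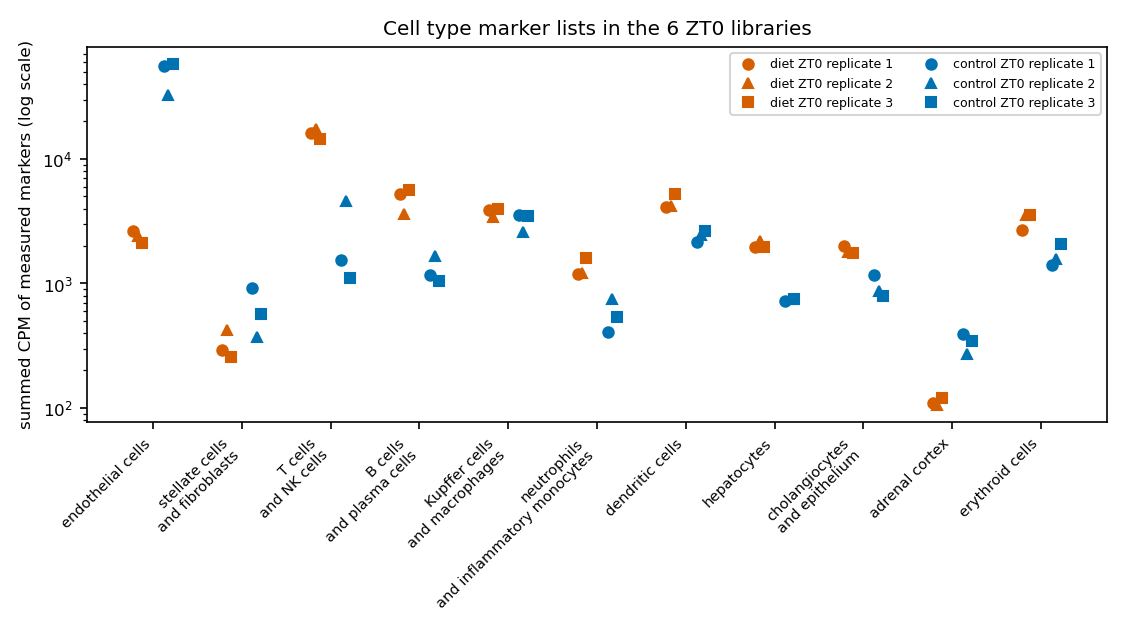
Summed CPM of the marker genes of each cell type (log10 axis) in each ZT0 library, diet left of control; points are libraries. The 3 diet libraries lie at 2125 to 2661 CPM for endothelial markers, against 32675 to 57872 CPM in control, and at 14355 to 17262 CPM for T and NK cell markers, against 1097 to 4567 CPM in control.

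Defining stellate markers were low in both groups. Lrat, which makes retinyl esters, was at 3.08, 1.04 and 1.43 CPM in diet libraries, against 1.26, 1.96 and 0.435 CPM in control libraries. The intermediate filament gene Des was at 3.65, 7.85 and 3.68 CPM in diet libraries, against 6.73, 2.92 and 4.79 in control libraries. The PDGF receptor gene Pdgfrb was at 4.70, 1.85 and 2.06 CPM in diet libraries, against 4.62, 1.96 and 2.47 in control libraries. Reln, a stellate-cell glycoprotein gene, was at 5.92, 3.75 and 3.49 CPM in diet libraries, against 2.87, 1.58 and 0.725 in control libraries. None of these 4 was called, and their groups overlapped except for Reln (log2 change 1.34 ± 0.72, adjusted p = 0.182). Of 27 measured stellate and fibroblast genes, 3 rose and 2 fell, with a median of 0.41, which was -0.26 over the members with a mean of at least 5 CPM. The 5 that moved were Rgs5, Cygb, Nes, Ecm1 and Colec11. Rgs5, a pericyte gene, was at 39.9, 40.4 and 29.9 CPM in diet libraries, against 11.0, 6.61 and 3.77 CPM in control libraries (log2 change 2.36 ± 0.41, adjusted p = 0.000136). Cygb, a stellate-cell globin, was at 4.03, 6.47 and 4.54 CPM in diet libraries, against 0.994, 1.34 and 2.18 in control libraries (log2 change 1.74 ± 0.49, adjusted p = 0.00983; 0.0561 without replicate 1 of control). Nes, which endothelial cells also express, was at 1.69, 1.68 and 2.10 CPM in diet libraries, against 33.4, 19.4 and 36.3 in control libraries (-4.03 ± 0.34). Ecm1 was at 27.5, 38.6 and 36.1 CPM in diet libraries, against 277, 126 and 254 in control libraries (-2.68 ± 0.27). The collectin gene Colec11 was at 6.90, 9.36 and 4.06 CPM in diet libraries, against 1.80, 0.144 and 2.80 in control libraries (log2 change 2.10 ± 0.69, adjusted p = 0.0251), a call lost without replicate 1 or 2 of control or replicate 2 of diet (adjusted p of 0.0594 to 0.0887).

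Fibrosis genes were not called higher. Acta2, the smooth muscle actin of myofibroblasts, was at 4.16, 8.58 and 4.78 CPM in diet libraries, against 5.01, 5.75 and 10.5 CPM in control libraries (log2 change -0.28 ± 0.47, adjusted p = 0.725). Col1a1, a chain of collagen I, was at 5.92, 10.3 and 5.26 CPM in diet libraries, against 19.030, 9.29 and 7.20 in control libraries (log2 change -0.73 ± 0.42, adjusted p = 0.217). Col1a2, its partner chain, was at 8.39, 10.1 and 5.31 CPM in diet libraries, against 18.99, 5.31 and 5.85 in control libraries (log2 change -0.34 ± 0.47, adjusted p = 0.652). For Timp1, an inhibitor of matrix proteases, the values were 1.29, 6.38 and 0.908 CPM in diet libraries, against 1.76, 2.59 and 1.31 in control libraries (log2 change 0.60 ± 0.82, adjusted p = 0.653). Col3a1 was at 33.5, 79.2 and 27.6 CPM in diet libraries, against 177, 62.1 and 68.7 CPM in control libraries (log2 change -1.14 ± 0.51, adjusted p = 0.106); it was called lower without replicate 2 of diet (log2 change -1.75, adjusted p = 0.0258). The groups overlapped for all of these 5 genes, and leaving out single libraries moved their log2 changes by over 1.5 times: Col1a1 to -0.21 and Col3a1 to -0.49 without replicate 1 of control, and Timp1 to -0.77 without replicate 2 of diet.

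Among structural matrix genes 16 of 33 fell and none rose (median -1.59). Those with the smallest p belong to basement membranes or bind matrix. Sparc, a collagen-binding glycoprotein gene, was at 224, 278 and 190.0 CPM in diet libraries, against 3071, 2076 and 3150.4 CPM in control libraries (log2 change -3.58 ± 0.18, adjusted p = 1.19e-11). Col4a2, a basement membrane collagen chain, was at 24.9, 28.3 and 29.9 CPM in diet libraries, against 543, 339 and 634 in control libraries (-4.19 ± 0.24). The heparan sulfate proteoglycan gene Hspg2 was at 25.6, 17.6 and 14.1 CPM in diet libraries, against 329.7, 262 and 402 in control libraries (-4.11 ± 0.26). Nid1, which links laminin to collagen IV, was at 18.5, 17.8 and 18.3 CPM in diet libraries, against 317, 195 and 283 in control libraries (-3.86 ± 0.25). Of 33 genes of matrix cross-linking and turnover, 4 rose and 16 fell (median -1.34). Timp3 fell by 3.88 on the log2 scale, the collagen lysyl hydroxylase gene Plod1 by 3.23, the membrane protease gene Mmp14 by 2.72 and Adamts1 by 3.05. The endothelial marker sum moved with each of these lists; its part in them was not tested. TGF-beta and activin signalling was mixed, with 6 genes higher and 12 lower of 32 (median -0.23). Lower were the latent TGF-beta binding protein gene Ltbp4 (-4.38 ± 0.22), the co-receptor gene Tgfbr3 (-3.57 ± 0.22), the BMP receptor gene Bmpr2 (-2.75 ± 0.20) and the BMP target Id3 (-2.14 ± 0.15).

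The largest falls outside these lists were in genes almost silent under diet. Plppr5, a phospholipid phosphatase-related gene, had 1 count in the 3 diet libraries together, against 657 in the 3 control libraries, a ratio of control over diet of 714 (exact 95% interval 127.8 to 28260, counting error only). Flrt1 was at 0.203, 0 and 0.0956 CPM in diet libraries, against 9.55, 4.12 and 16.8 CPM in control libraries (-6.52 ± 0.77). Klhdc8a was at 0.271, 0 and 0.0478 CPM in diet libraries, against 11.7, 9.29 and 9.91 in control libraries (-6.40 ± 0.94). The neurotrophin gene Ntf3 was at 0.0677, 0.388 and 0.717 CPM in diet libraries, against 23.7, 14.3 and 19.5 in control libraries (-5.68 ± 0.77). Thrsp, a lipogenic gene that follows thyroid hormone, was at 0.304, 2.20 and 0.622 CPM in diet libraries, against 61.6, 37.5 and 41.7 CPM in control libraries (-5.52 ± 0.67). The others named by size of change were Mroh7 (-5.35 ± 0.76), Exoc3l2 (-5.30 ± 0.30), Rflna (-5.28 ± 0.69), the phospholipid phosphatase gene Plpp1 (-5.13 ± 0.28), Hspa12b (-5.09 ± 0.51) and Rnase10 (-5.03 ± 0.83). For these genes, log2 changes of low counts depend on the prior count of the fit.

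Lymphocyte genes were higher under diet. Of 30 T and NK cell markers 28 rose and none fell (median 2.09; 30 of 30 and 3.03 without replicate 2 of control). Cd8a, a chain of the CD8 co-receptor, was at 553, 685 and 486 CPM in diet libraries, against 25.2, 44.4 and 10.8 CPM in control libraries (log2 change 4.42 ± 0.42, adjusted p = 6.06e-08). Its partner Cd8b1 was at 498, 565 and 482 CPM in diet libraries, against 28.9, 41.4 and 23.4 in control libraries (4.04 ± 0.28). Eomes, a transcription factor of effector and memory T cells and NK cells, was at 72.029, 82.9 and 63.8 CPM in diet libraries, against 1.87, 3.59 and 1.45 CPM in control libraries (log2 change 4.99 ± 0.44, adjusted p = 1.87e-08). The cytolytic genes Prf1 and Gzmk were also higher. Prf1, which encodes perforin, was at 253, 253 and 258 CPM in diet libraries, against 22.3, 37.5 and 14.5 in control libraries (3.36 ± 0.29). Gzmk, a granzyme gene, was at 338, 410.0 and 299 CPM in diet libraries, against 9.82, 6.32 and 2.18 in control libraries (5.82 ± 0.59). In each of these genes the 3 diet libraries lay above all 3 controls, and replicate 2 or replicate 1 was the highest control.

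Some of the largest rises were in cytokine and antigen receptor genes. Il17a was at 144, 31.4 and 35.0 CPM in diet libraries, against 3.13, 0.0479 and 0.0967 CPM in control libraries (log2 change 5.90 ± 0.96, adjusted p = 6.08e-05; 9.83 without replicate 1 of control). The gamma chain segment Trgv6 was at 16.4, 3.28 and 6.17 CPM in diet libraries, against 0.0764, 0.239 and 0 in control libraries (6.31 ± 1.01). Receptor segments varied widely between the diet libraries. Trbv2 was at 121, 169 and 3.83 CPM in diet libraries, against 1.07, 1.44 and 0 in control libraries (6.84 ± 1.09). Trav16 was at 2.61, 52.9 and 2.63 CPM in diet libraries, against 0, 0.623 and 0.0484 in control libraries (6.46 ± 1.55), a call that was lost without replicate 2 of diet (3.56, adjusted p = 0.0628). Trav16n (5.89 ± 1.03) is a near copy of Trav16, so reads could be split between them. The largest rise by the rule was Coch, which encodes cochlin, at 216, 172 and 57.7 CPM in diet libraries, against 1.15, 0.239 and 1.21 CPM in control libraries (log2 change 7.40 ± 0.98, adjusted p = 4.86e-06). The G protein regulator gene Rgs16 was at 98.1, 97.5 and 61.1 CPM in diet libraries, against 2.87, 1.77 and 0.774 in control libraries (5.54 ± 0.62). The neuromedin U receptor gene Nmur1 was at 4.84, 15.8 and 7.27 CPM in diet libraries, against 0.0382, 0.144 and 0.532 in control libraries (5.31 ± 1.24). The cytokine gene Il10 was at 89.0, 35.5 and 13.96 CPM in diet libraries, against 1.87, 1.15 and 0.435 in control libraries (5.29 ± 1.00).

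B and plasma cell markers rose in 18 of 20, with none lower (median 1.96). Tnfrsf13c, the BAFF receptor gene, was at 39.0, 51.7 and 72.3 CPM in diet libraries, against 11.2, 11.49 and 3.38 CPM in control libraries (log2 change 2.64 ± 0.34, adjusted p = 3.58e-06). The constant regions Ighm and Igkc rose by 1.97 and 2.72 on the log2 scale. Single variable segments varied between the diet libraries, and the call of Ighv5-9-1 rested on replicate 1. Ighv5-9-1 was at 147, 4.62 and 6.31 CPM in diet libraries, against 0.153, 2.83 and 0.193 in control libraries (5.66 ± 1.24; 2.37 and adjusted p = 0.0862 without replicate 1 of diet). Igkv2-112 was at 16.3, 16.3 and 3.92 CPM in diet libraries, against 0.268, 0.0479 and 0.290 in control libraries (5.87 ± 1.12). The summed marker levels were 16148, 17262 and 14355 CPM in diet libraries, against 1543, 4567 and 1097 CPM in control libraries, for T and NK cells. For B and plasma cells they were 5214, 3602 and 5599 CPM in diet libraries, against 1162, 1663 and 1056 CPM in control libraries.

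Genes of the myeloid lists moved in both directions. The endothelial marker sum fell in the same libraries, and its part in the falls was not tested. Of 26 Kupffer cell and macrophage genes 9 rose and 5 fell (median 0.76). Mertk, a receptor for dying cells, was at 26.9, 19.5 and 17.0 CPM in diet libraries, against 473, 229.6 and 454 CPM in control libraries (log2 change -4.19 ± 0.25, adjusted p = 7.19e-11). The protease gene Ctss was at 521, 561 and 619 CPM in diet libraries, against 139.7, 173 and 139 in control libraries (1.91 ± 0.24). Aif1 was at 71.0, 71.3 and 64.6 CPM in diet libraries, against 19.5, 18.5 and 14.4 in control libraries (1.98 ± 0.28). Of 20 genes of lipid-associated macrophages 10 rose and 6 fell (median 0.61). The lectin gene Lgals3 was at 188, 183 and 178 CPM in diet libraries, against 24.1, 27.9 and 18.3 CPM in control libraries (2.97 ± 0.22). The actin-capping gene Capg was at 236, 171 and 204 CPM in diet libraries, against 52.0, 56.1 and 48.6 in control libraries (1.96 ± 0.14). Ctsl, a lysosomal protease, was at 472, 480.3 and 522 CPM in diet libraries, against 2383, 1609 and 2282 in control libraries (-2.09 ± 0.15). Neutrophil and inflammatory monocyte genes rose in 12 of 24 and fell in 1 (median 2.07, the same with S100a8 at its bound, and 2.98 without replicate 1 of control). Among the 7 members with a mean of at least 5 CPM, 6 rose and 1 fell (median 1.46). S100a8 was at 1.45, 5.65 and 1.15 CPM in diet libraries and at 0 counts in all 3 control libraries; against a floor of 3 counts per control library it was at least 20.5-fold higher. The monocyte genes Ly6c2 and Ccr2 rose by 1.40 ± 0.18 and 1.502 ± 0.25, and Il1b was at 23.6, 19.3 and 16.8 CPM in diet libraries, against 4.43, 2.97 and 1.02 CPM in control libraries (2.81 ± 0.46).

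Dendritic cell genes rose in 13 of 20 and fell in 4 (median 1.31). Xcr1, the chemokine receptor of cross-presenting dendritic cells, was at 78.0, 98.3 and 63.9 CPM in diet libraries, against 9.55, 12.1 and 3.58 CPM in control libraries (log2 change 3.25 ± 0.29, adjusted p = 2.66e-08). The activation marker Cd83 was at 258, 260.2 and 401 CPM in diet libraries, against 42.4, 56.6 and 27.9 in control libraries (2.86 ± 0.24). Cd24a was at 147, 168 and 155 CPM in diet libraries, against 42.034, 43.6 and 27.9 in control libraries (2.05 ± 0.19). Zbtb46, which endothelial cells also express, was lower, at 30.3, 43.6 and 39.9 CPM in diet libraries, against 277, 169 and 295 in control libraries (-2.70 ± 0.19). Antigen presentation genes rose in 15 of 19, with none lower (median 1.24, and 1.80 without replicate 2 of control). The class II chain H2-Ab1 was at 2693, 2832 and 2754 CPM in diet libraries, against 408, 664 and 383 CPM in control libraries (log2 change 2.51 ± 0.21, adjusted p = 7.45e-09). Its partners H2-Aa (2.34 ± 0.20) and H2-Eb1 (2.49 ± 0.19) and the invariant chain Cd74 (2.13 ± 0.18) rose by similar amounts, with diet libraries above all control libraries. Class II genes resemble each other, so the split of reads between them is uncertain.

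Inflammatory mediators divided. Of 36 genes 17 rose and 7 fell (median 1.40, or 1.25 with Ccl12, at 0 counts in control, set at its bound). The chemokine genes Ccl3 and Ccl4 were higher. Ccl3 was at 839, 677 and 586 CPM in diet libraries, against 38.8, 49.5 and 16.6 CPM in control libraries (log2 change 4.32 ± 0.30, adjusted p = 6.65e-10). Ccl4 was at 992, 787 and 592 CPM in diet libraries, against 51.2, 74.6 and 38.7 in control libraries (3.85 ± 0.30). Il1a, an interleukin-1 gene, was lower, at 24.4, 17.7 and 18.98 CPM in diet libraries, against 189, 114 and 242 in control libraries (-3.15 ± 0.23). Cxcl16 was lower too, at 111, 99.1 and 91.9 CPM in diet libraries, against 364, 239 and 385 in control libraries (-1.71 ± 0.14). Interferon-stimulated genes fell in 14 of 30 and rose in 3 (median -0.52). Without replicate 2 of control 12 fell and 6 rose, and without replicate 1 of control 15 fell and 1 rose. Iigp1, an immunity-related GTPase gene, was at 20.7, 22.2 and 18.9 CPM in diet libraries, against 89.8, 137 and 113 CPM in control libraries (log2 change -2.46 ± 0.17, adjusted p = 6.74e-10). Rsad2 was at 28.0, 47.0 and 47.8 CPM in diet libraries, against 165, 103 and 162 in control libraries (-1.81 ± 0.26). Ifi44 (-1.65 ± 0.24) and Rtp4 (-1.36 ± 0.20) also fell.

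Immediate early genes rose in 26 of 30, with none lower (median 1.45). Nr4a2, an orphan nuclear receptor induced within minutes of a stimulus, was at 226, 194 and 146 CPM in diet libraries, against 11.2, 12.9 and 6.00 CPM in control libraries (log2 change 4.23 ± 0.34, adjusted p = 4.42e-09). Its relative Nr4a1 was at 689, 617 and 865 CPM in diet libraries, against 124, 160.3 and 66.8 in control libraries (2.63 ± 0.27). Tnfaip3, which restrains NF-kappa-B, was at 496, 495 and 445 CPM in diet libraries, against 36.6, 75.1 and 16.5 in control libraries (3.49 ± 0.34). Nfkbia, its inhibitor gene, was at 713, 563 and 774 CPM in diet libraries, against 317, 284 and 259 in control libraries (1.25 ± 0.12). Glucocorticoid-induced genes were mixed, with 7 higher and 11 lower of 22 (median -0.76). The kinase gene Sgk1 was at 189, 175 and 163 CPM in diet libraries, against 1278, 588 and 1183 CPM in control libraries (-2.53 ± 0.21). Klf9 was at 12.0, 11.9 and 10.7 CPM in diet libraries, against 57.2, 33.4 and 50.2 in control libraries (-2.02 ± 0.18).

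Clock-controlled output genes were 6 higher and 8 lower of 23 (median -0.51), with Tspan4 (-2.78 ± 0.22), the purine enzyme gene Pnp (-1.37 ± 0.14) and the kinase gene Pim3 (-1.05 ± 0.11) lower.

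Hepatocyte and bile duct genes were higher under diet. Of 31 hepatocyte genes 19 rose and 1 fell (median 1.23). The plasma protein gene Ahsg was at 219.7, 188 and 178 CPM in diet libraries, against 39.9, 31.7 and 25.9 CPM in control libraries (log2 change 2.58 ± 0.28, adjusted p = 3.65e-07). The retinol carrier gene Rbp4 was at 59.7, 62.5 and 58.5 CPM in diet libraries, against 13.5, 11.6 and 13.2 in control libraries (2.24 ± 0.26). Apoa1 was at 77.5, 101 and 106 CPM in diet libraries, against 25.5, 31.8 and 34.5 in control libraries (1.63 ± 0.22). The hepcidin gene Hamp was at 4.70, 5.18 and 3.11 CPM in diet libraries, against 0.688, 0.479 and 0.774 in control libraries (2.73 ± 0.40). The summed hepatocyte markers were 1970, 2197 and 1947 CPM in diet libraries, against 722, 753 and 756 CPM in control libraries. Of 20 bile duct and epithelial genes 10 rose and none fell (median 0.82). The tight junction gene Cldn4 was at 18.6, 13.8 and 18.9 CPM in diet libraries, against 4.51, 2.83 and 1.31 CPM in control libraries (log2 change 2.55 ± 0.44, adjusted p = 0.000116). The keratin gene Krt18 was at 121, 125 and 131 CPM in diet libraries, against 56.2, 33.1 and 26.9 in control libraries (1.70 ± 0.32). Of 13 erythroid genes 5 rose and none fell, the globin gene Hbb-bs at 1370.2, 1844 and 1835 CPM in diet libraries, against 669, 739.7 and 1007 CPM in control libraries (1.06 ± 0.21), with the alpha-globin copies Hba-a1 (0.92 ± 0.21) and Hba-a2 (0.88 ± 0.21), which share reads, and the carbonic anhydrase gene Car2 (1.38 ± 0.23). Among adrenal cortex genes, 1 of 12 rose and 1 fell. Cyp11a1, the first enzyme of steroid synthesis, was at 12.9, 12.2 and 24.3 CPM in diet libraries, against 0.153, 0.766 and 0.725 CPM in control libraries (log2 change 4.95 ± 1.07, adjusted p = 0.00114). Scarb1, an HDL receptor gene of several tissues, was at 78.5, 72.8 and 76.4 CPM in diet libraries, against 365, 254 and 329 in control libraries (-2.06 ± 0.14). Other adrenal enzymes were near 0 in these 6 libraries, with Hsd3b1 and Cyp11b1 at no more than 0.143 CPM, and Mc2r, the ACTH receptor gene, was at 0.0338, 0 and 0.0478 CPM in diet libraries, against 0, 0.527 and 0 in control libraries (adjusted p = 0.305).

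Lipid genes had no common direction at ZT0. Of 26 genes of cholesterol synthesis and uptake 2 rose and 4 fell, beside 13.5% higher and 16.5% lower over all genes. The cholesterol carrier gene Stard4 was at 33.1, 30.2 and 27.8 CPM in diet libraries, against 71.5, 57.9 and 81.1 CPM in control libraries (-1.21 ± 0.14). The mevalonate pathway gene Mvd was at 37.6, 38.9 and 32.9 CPM in diet libraries, against 20.6, 19.8 and 19.2 in control libraries (0.88 ± 0.17). Its neighbour in the pathway, Mvk, was at 8.83, 8.41 and 9.99 CPM in diet libraries, against 25.3, 17.0 and 25.5 in control libraries (-1.31 ± 0.29). In fatty acid synthesis 4 of 20 rose and 6 fell. Fasn, the fatty acid synthase gene, was at 46.9, 41.2 and 32.9 CPM in diet libraries, against 20.1, 26.5 and 17.0 CPM in control libraries (0.93 ± 0.19). The desaturase gene Fads1 was at 35.6, 44.8 and 48.7 CPM in diet libraries, against 247, 145 and 214 in control libraries (-2.23 ± 0.19), and the elongase gene Elovl1 fell too (-0.69 ± 0.15). Without replicate 1 of control or replicate 2 of diet 3 fell. In fatty acid oxidation 5 of 21 rose and 3 fell, and 3 rose without replicate 3 of control or replicate 2 of diet. Pdk4, which spares pyruvate, was at 0.947, 1.04 and 0.717 CPM in diet libraries, against 8.14, 3.11 and 5.66 in control libraries (-2.64 ± 0.47). The uncoupling protein gene Ucp2 rose (0.84 ± 0.09). Among 24 genes of lipid uptake and storage 5 rose and 8 fell. Cd36, a fatty acid receptor gene, was at 246, 219 and 200.2 CPM in diet libraries, against 909, 1030.1 and 973 in control libraries (-2.13 ± 0.14), and the lipase gene Mgll and the carrier gene Fabp4 fell by 3.34 and 3.39 on the log2 scale.

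In the housekeeping and stress lists, 26 of 30 ribosomal protein genes rose and none fell (median 0.72). Rps9 was at 659, 741 and 746 CPM in diet libraries, against 313, 435 and 329 CPM in control libraries (1.00 ± 0.11), and Rplp0 rose as well (0.82 ± 0.10); many have processed copies that can share reads. All 8 genes of the mitochondrial genome rose (median 1.26). The gene mt-Nd5, of a subunit of complex I, was at 3506, 4029.8 and 2836 CPM in diet libraries, against 1424, 1233 and 1331 in control libraries (1.38 ± 0.17), with mt-Nd6 (1.42 ± 0.16), mt-Nd2 (1.34 ± 0.19) and mt-Nd4 (1.19 ± 0.17). Cytosolic heat shock genes rose in 15 of 22 and fell in 2 (median 0.66). Hspa4 was at 133, 141 and 143 CPM in diet libraries, against 84.8, 89.7 and 85.7 CPM in control libraries (0.68 ± 0.09). The co-chaperone gene Bag3 was at 27.0, 31.9 and 38.5 CPM in diet libraries, against 75.9, 52.4 and 70.3 in control libraries (-1.03 ± 0.18). Cacybp (0.88 ± 0.13) and the mitochondrial chaperonin gene Hspd1 (0.86 ± 0.13) rose. Endoplasmic reticulum chaperones and unfolded protein response genes divided, 8 higher and 6 lower of 26. Sel1l, of protein quality control, was at 89.3, 73.3 and 79.1 CPM in diet libraries, against 167, 140.1 and 169 CPM in control libraries (-0.98 ± 0.11). The stress factor gene Atf4 was at 226, 233 and 242 CPM in diet libraries, against 146, 161 and 152 in control libraries (0.61 ± 0.09), and its target Ppp1r15a rose (0.99 ± 0.15). Cell cycle genes rose in 8 of 30 and fell in 3 (12 and 4 without replicate 2 of control); the cyclin D1 gene Ccnd1 fell (-1.07 ± 0.19), the replication licensing gene Cdt1 rose (1.26 ± 0.21), and of 2 subunits of the replicative helicase Mcm4 rose (0.85 ± 0.14) and Mcm3 fell (-0.69 ± 0.11). Hypoxia and glycolysis genes numbered 8 higher and 5 lower of 24, NRF2 targets 7 and 4 of 22, and p53 targets 7 and 6 of 22. Without replicate 2 of diet the lower hypoxia genes were 3 and the lower NRF2 targets 2. The genes with the smallest p in these lists were Ndrg1, Fth1 and Pmaip1. Ndrg1, a hypoxia-induced gene, was at 47.7, 44.6 and 36.7 CPM in diet libraries, against 388, 229.5 and 443 CPM in control libraries (-3.04 ± 0.20). The ferritin heavy chain gene Fth1 was at 2317, 2562 and 2642 CPM in diet libraries, against 1190.4, 1253 and 1219 in control libraries (1.04 ± 0.11). The p53 target Pmaip1, which encodes the pro-apoptotic protein NOXA, was at 129.9, 124 and 143 CPM in diet libraries, against 18.2, 15.0 and 8.66 in control libraries (3.24 ± 0.25). In the first list the vasodilator gene Adm fell (-3.55 ± 0.36) and the glycolytic genes Gapdh (0.75 ± 0.11) and Eno1 (0.81 ± 0.12) rose. In the second, Osgin1 (1.74 ± 0.19) and Taldo1 (0.80 ± 0.10) rose and Nfe2l2, which encodes NRF2 itself, fell (-1.25 ± 0.16). In the third, Ccng1 rose (1.05 ± 0.15), and the kinase gene Plk2 (-2.20 ± 0.17) and the death receptor gene Fas (-2.88 ± 0.23) fell.

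**Figure D2:**
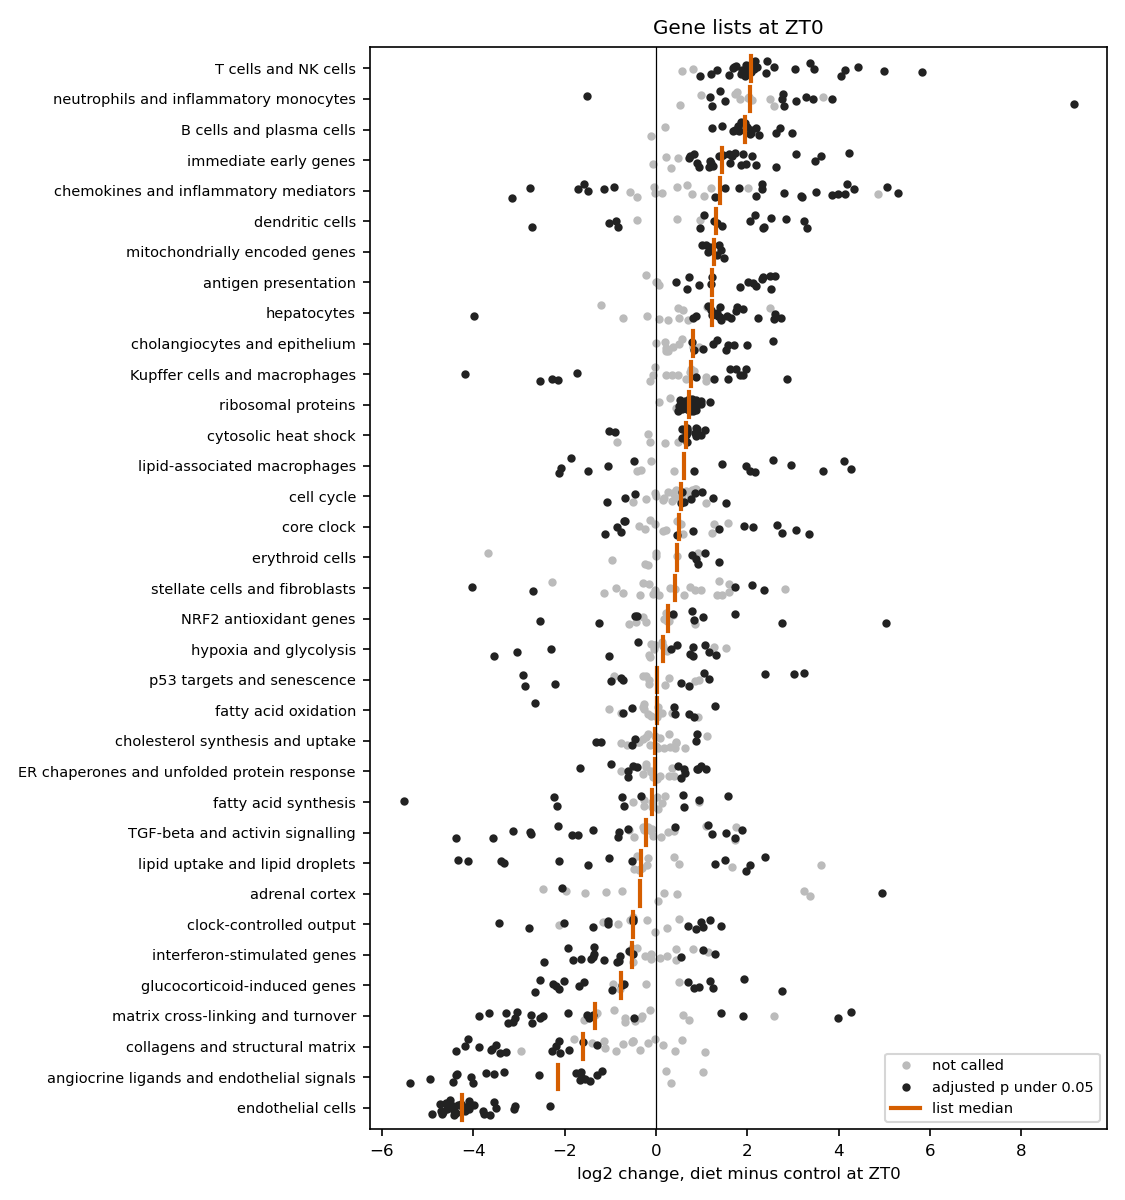
Log2 change of diet over control at ZT0 for every measured member of each gene list. Points are genes, dark where called and light grey where not, and the bar is the list's median. Endothelial genes (median -4.25) lie lowest and T and NK cell genes (2.09), neutrophil genes (2.07) and B cell genes (1.96) highest. Over neutrophil genes with a mean of at least 5 CPM the median is 1.46. S100a8, at 0 counts in control, is drawn at its fitted value, which is no bound.

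What set ZT0 apart from the other times was tested as the diet minus control difference at ZT0 minus the mean of the differences at ZT6, ZT12 and ZT18. The 4 differences share no library. By edgeR's quasi-likelihood test 108 genes were called (0.482% of those tested), 26 with the ZT0 difference above the others (0.116%) and 82 below (0.366%), and 2360 genes had an unadjusted p under 0.05. With library size as the only scaling the split was 20 above and 155 below. It was 172 and 216 without replicate 2 of control ZT0, and 11 and 9 without replicate 2 of diet ZT0. The median over all genes tested was -0.11. For 105 of the 108 the sign was the same against each of the other times. In 57 of the 82 genes below, diet was higher than chow at ZT0 and on average later, by less at ZT0; in 12 it was lower at both, and in 13 lower at ZT0 and higher later. Of the 26 above, 13 were higher under diet at ZT0 and lower on average later, 10 higher at both and 3 lower at both.

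With all libraries and TMM scaling, the chow side of this comparison was called more often than the diet side. In 82 of the 108 the control ZT0 libraries differed from the mean of the other control times while the diet ZT0 libraries were not called different from the other diet times; 16 showed the reverse, 3 both and 7 neither. A gene not called here can still vary over the day, since the later times enter as a mean. These contrasts add up to the same difference and are not independent of it. Over all genes, control ZT0 differed from the other control times in 365 genes (1.63%), 247 higher and 118 lower. Diet ZT0 differed from the other diet times in 154 genes (0.687%), 32 higher and 122 lower. Which side had more calls over all genes depended on the fit. With library size as the only scaling diet had 452 (34 higher and 418 lower) and control 379 (243 higher and 136 lower). Without replicate 2 of control ZT0 diet had 398 and control 387.

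The number of genes called moved with single libraries. It was 388 without replicate 2 of control ZT0, 99 of them shared with the 108. In that fit 14 of 30 T and NK cell markers and 17 of 30 immediate early genes were called, beside 388 of all 22124 genes tested. With all libraries 0 of these markers and 2 of these immediate early genes were called. The number of genes called was 38 without replicate 3 of control ZT0 (34 shared), and 26, 20 and 41 without replicates 1, 2 and 3 of diet ZT0. Beyond ZT0, it was 174 without replicate 1 of control ZT12, 64 without replicate 1 of control ZT6, and 53 without replicate 3 of diet ZT18 or replicate 2 of diet ZT6. Another fit left out the ZT18 libraries and replicate 2 of control ZT12, and set ZT0 against the mean of ZT6 and ZT12. It is named below as the fit without the libraries with adrenal genes. Replicate 1 of diet ZT12, with Hsd3b1 at 4.79 CPM, stayed in. That fit also drops a whole time and leaves control ZT12 with 1 library, so the part of adrenal genes in lost calls was not tested. A gene called in all 22 fits that each left out 1 library is described below as stable to single libraries. Genes named below beyond the 12 of each sign with the smallest p are clock genes or members of the other lists that were called, and these were chosen after their values were seen.

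Core clock genes were among those called. Of 26 measured core clock genes 9 were called in this comparison, 8 above and 1 below, beside 0.482% of all genes; the count was 9 with each of the 3 scalings, and between 5 and 11 with single libraries left out. On chow all 9 differed between ZT0 and the mean of the later times, 8 lower and Arntl higher. Under diet only Nr1d2 and Dbp did, both lower at ZT0. Nr1d1, at chr11:98767932-98775333 in GRCm38, encodes the repressor REV-ERB alpha. Under diet its levels in CPM were 27.7, 18.5 and 23.4 at ZT0, 48.4, 55.1 and 37.7 at ZT6, 41.5, 38.8 and 23.7 at ZT12 and 18.5, 16.7 and 17.9 at ZT18. On chow they were 50.5, 26.5 and 41.0 at ZT0, 413 and 393 at ZT6, 271 and 253 at ZT12 and 25.8, 33.5 and 29.7 at ZT18. The log2 change was -0.76 ± 0.22 at ZT0, and -3.10 at ZT6, -2.92 at ZT12 and -0.75 at ZT18 (1.49 ± 0.26, adjusted p = 0.0159, for ZT0 minus the mean of the others). The ZT0 difference was apart from those at ZT6 and ZT12 and close to that at ZT18. At ZT0 alone the call was lost without replicate 1 of control (adjusted p = 0.0933), without replicate 2 of diet (0.0652) and when the 6 ZT0 libraries were fitted alone (0.0552).

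Its relative Nr1d2 (chr14:18204054-18239127) was also called, with another sign at ZT0 and a chow peak at ZT12 in place of ZT6. Under diet it was at 22.6, 16.5 and 20.3 at ZT0, 31.6, 40.2 and 33.4 at ZT6, 31.9, 41.4 and 34.1 at ZT12 and 27.7, 23.2 and 22.3 at ZT18 CPM, and on chow at 15.5, 14.2 and 13.5 at ZT0, 84.3 and 90.5 at ZT6, 108 and 122 at ZT12 and 33.6, 47.2 and 49.6 at ZT18 CPM. The log2 change was 0.46 ± 0.16 at ZT0, a call lost without any one of the control ZT0 libraries or replicate 1 or 3 of diet, and -1.32 at ZT6, -1.68 at ZT12 and -0.83 at ZT18 (1.73 ± 0.19, adjusted p = 0.000424). Dbp (chr7:45705088-45710203), an output factor that binds D-boxes, was at 5.31, 3.06 and 3.59 CPM under diet at ZT0 and 4.37 to 14.1 CPM later, against 6.23, 3.59 and 5.66 CPM on chow at ZT0 and 10.4 to 129 CPM later. Its log2 change was -0.37 ± 0.23 at ZT0 (adjusted p = 0.261), and -2.22 at ZT6, -3.21 at ZT12 and -1.34 at ZT18 (1.89 ± 0.27, adjusted p = 0.00248). Tef (chr15:81802421-81826863), its relative, was at 7.24, 9.19 and 9.09 CPM under diet at ZT0 and 7.19 to 18.5 CPM later, against 6.76, 7.09 and 4.59 CPM and 19.5 to 64.3 CPM on chow (2.22 ± 0.33, adjusted p = 0.00364). Dbp, Tef and Per3 were not called at ZT0 and were called lower under diet at all 3 other times. Nr1d2, Dbp and Tef were stable to single libraries.

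The period and cryptochrome genes were divided. Per3 (chr4:151003652-151044665) was at 7.17, 11.1 and 6.02 CPM in diet libraries, against 8.75, 5.94 and 6.19 in control libraries, both in CPM at ZT0, and at 6.21 to 20.3 CPM under diet and 19.1 to 57.5 CPM on chow at the later times (1.83 ± 0.26, adjusted p = 0.00248). Cry2 (chr2:92403646-92434043) was at 14.6, 23.1 and 24.0 CPM in diet libraries, against 8.75, 7.85 and 7.11 CPM in control libraries at ZT0 (1.37 ± 0.25, adjusted p = 0.000195), and its later log2 changes were 0.21 at ZT6, -0.83 at ZT12 and -1.07 at ZT18 (1.94 ± 0.29, adjusted p = 0.00364). Both were stable to single libraries. Per1 (chr11:69095217-69109960) was higher under diet at ZT0, at 105, 105 and 104 CPM in diet libraries, against 28.0, 32.0 and 23.0 CPM in control libraries (log2 change 1.92 ± 0.16, adjusted p = 9e-09). The diet libraries held 93.3 to 129 CPM at later times and the control libraries 25.1 to 81.2 CPM, and the comparison of times gave 0.96 ± 0.18, adjusted p = 0.0226. Ciart (chr3:95878503-95882251), a repressor of CLOCK and BMAL1, was at 14.040, 11.9 and 20.4 CPM in diet libraries, against 0.994, 3.54 and 2.90 in control libraries at ZT0 (log2 change 2.65 ± 0.36, adjusted p = 6.62e-06), with 2.02 against the other times (adjusted p = 0.0317).

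Arntl (chr7:113207465-113314126), the activator, ran the other way. Under diet it was at 27.5, 24.2 and 26.5 at ZT0, 22.8, 13.998 and 24.1 at ZT6, 11.6, 25.4 and 15.9 at ZT12 and 31.7, 28.1 and 28.2 at ZT18 CPM. On chow it was at 62.9, 41.7 and 63.7 at ZT0, 26.9 and 19.8 at ZT6, 5.54 and 7.91 at ZT12 and 15.7, 25.6 and 20.8 at ZT18 CPM, highest at ZT0 and lowest at ZT12. Its log2 change was -1.11 ± 0.26 at ZT0 (adjusted p = 0.00260) and -0.20 at ZT6, 1.38 at ZT12 and 0.50 at ZT18. ZT0 was below the others (-1.67 ± 0.31, adjusted p = 0.0211). Of the 22 fits that left out 1 library, Nr1d1 was called in 21 (not without replicate 1 of diet ZT0), and Per1, Ciart and Arntl in 18 (not without replicate 3 of control ZT0 or any one of the diet ZT0 libraries). Without the libraries with adrenal genes 5 of the 9 were called: Nr1d1, Nr1d2, Dbp, Tef and Cry2.

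**Figure D3:**
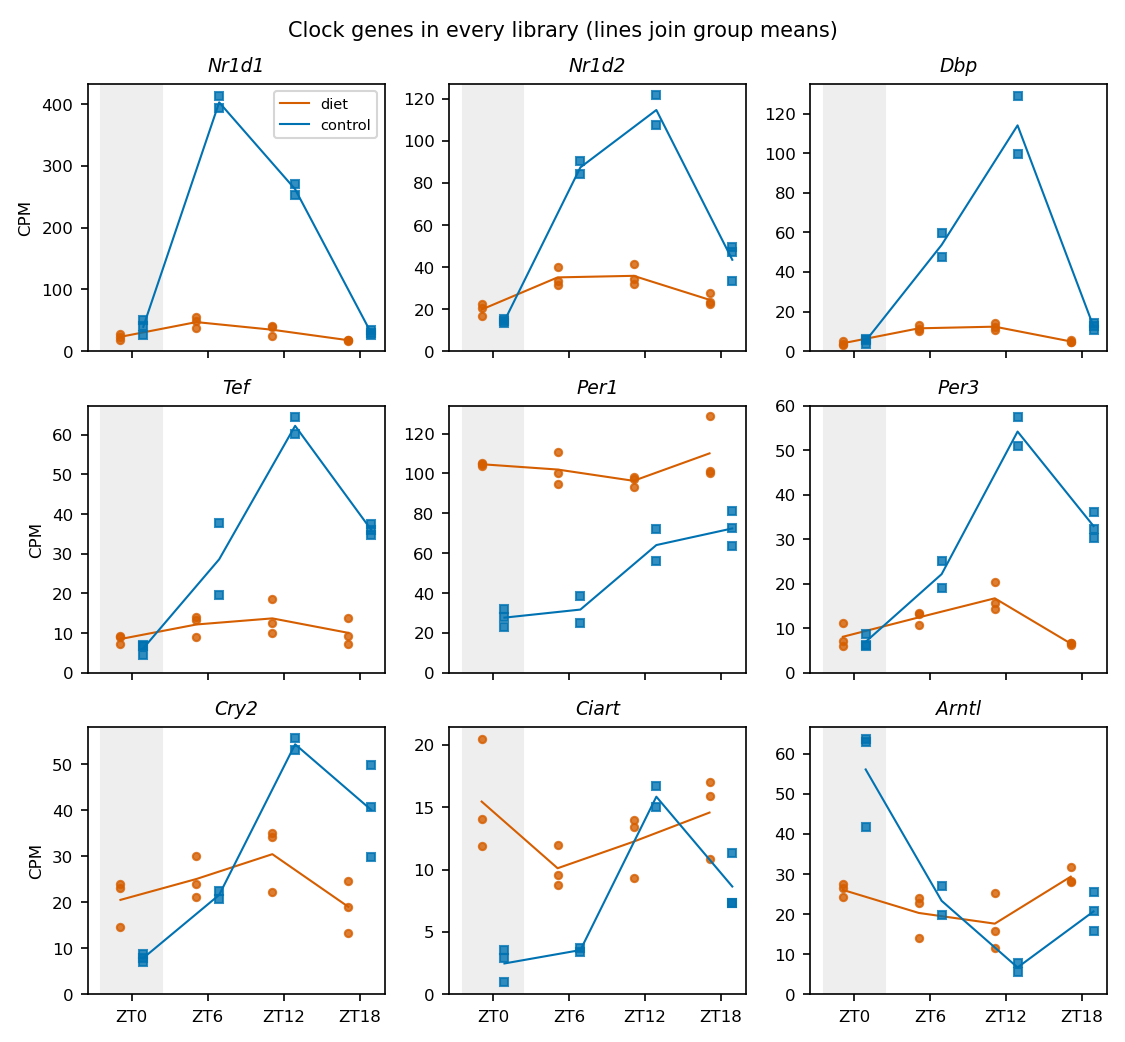
CPM of clock genes in every library by zeitgeber time, diet (orange) and control (blue); lines join group means, and the grey band marks ZT0. Control Nr1d1 is at 26.5 to 50.5 CPM at ZT0 and 253 to 413 CPM at ZT6 and ZT12, while diet Nr1d1 stays between 16.7 and 55.1 CPM.

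Among all 26 clock genes at ZT0, 9 were higher and 5 lower under diet (median 0.50), and 3 were lower without replicate 2 of diet. Bhlhe40, which represses CLOCK and BMAL1 targets, was at 567, 521 and 443 CPM in diet libraries, against 68.3, 113 and 43.3 CPM in control libraries (log2 change 2.77 ± 0.22, adjusted p = 5.36e-09). Nfil3, a repressor at D-boxes, was at 94.2, 86.0 and 96.0 CPM in diet libraries, against 10.6, 17.9 and 4.79 in control libraries (log2 change 3.05 ± 0.31, adjusted p = 1.46e-07). The other higher genes included Per1, Ciart, Cry2 and Nr1d2, with Bhlhe41 (2.13 ± 0.59; 1.30, adjusted p = 0.111 without replicate 3 of diet) and Rora (0.81 ± 0.27; 1.36 without replicate 2 of control, and not called without replicate 1 or 3 of control or replicate 1 or 2 of diet). The lower ones included Arntl, Nr1d1, Clock at 12.96, 15.5 and 17.3 CPM in diet libraries, against 32.6, 20.4 and 29.4 CPM in control libraries (log2 change -0.85 ± 0.20, adjusted p = 0.00224) and the casein kinase gene Csnk1e (log2 change -0.69 ± 0.18, adjusted p = 0.00592). Per2, Cry1, Hlf, Npas2, Csnk1d and Timeless were not called. Per2 was at 4.84, 1.38 and 5.45 CPM in diet libraries, against 3.52, 2.97 and 1.21 CPM in control libraries (log2 change 0.59 ± 0.45, adjusted p = 0.373). Cry1 was at 27.2, 32.8 and 39.7 CPM in diet libraries, against 21.8, 22.4 and 24.3 in control libraries (log2 change 0.54 ± 0.21, adjusted p = 0.0654). The others were Hlf (log2 change 1.27 ± 0.70, adjusted p = 0.195), Npas2 (log2 change -0.03 ± 0.75, adjusted p = 0.985), Csnk1d (log2 change 0.16 ± 0.10, adjusted p = 0.282) and Timeless (log2 change -0.24 ± 0.23, adjusted p = 0.490). Cry1 passed the threshold in several other fits (adjusted p of 0.0169 to 0.0470), and Hlf, at 0.115 to 2.47 CPM, in the fit without replicate 3 of control (adjusted p = 0.0489). Several of these genes are also used by T cells (Nfil3, Bhlhe40, Rora), whose markers moved in the same libraries, and their part was not tested.

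The promoters of the 9 called clock genes were searched for the elements known to drive the loop, because these genes were called in the comparison of times. The windows run from 250 bases before to 50 after each RefSeq start (GRCm38.p6), and both strands were read. The E-box CACGTG, bound by CLOCK and BMAL1, was found in Ciart (116, 58 and 44 bases upstream of the start), Tef (127, and 138 from a second start) and Per1 (166). The D-box TTATGNAA, bound by DBP and NFIL3, was found in Per3 (205 and 158 bases upstream) and Per1 (24). The half-site AGGTCA of REV-ERB and ROR receptors was in Nr1d2, Per1 and, 31 bases downstream of a second start, Arntl. The windows of Nr1d1, Dbp and Cry2 held none of these elements. Of 32851 RefSeq windows of this length 7.15% held the E-box, 3.385% the D-box and 16.26% the half-site. A match describes the letters only. For each of the 4 genes with an E-box or D-box, 1 window is printed, at the first listed start, with those elements in capitals and the half-site of Per1 on its other strand also in capitals (TGACCT).
Ciart (chr3:95882179-95882478, minus strand): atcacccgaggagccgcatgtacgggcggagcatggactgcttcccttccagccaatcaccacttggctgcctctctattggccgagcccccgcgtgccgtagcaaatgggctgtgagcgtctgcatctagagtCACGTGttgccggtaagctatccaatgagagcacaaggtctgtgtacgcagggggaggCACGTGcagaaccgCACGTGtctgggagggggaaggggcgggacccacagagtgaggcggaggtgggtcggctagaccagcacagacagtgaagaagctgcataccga
Tef (chr15:81802423-81802722, plus strand): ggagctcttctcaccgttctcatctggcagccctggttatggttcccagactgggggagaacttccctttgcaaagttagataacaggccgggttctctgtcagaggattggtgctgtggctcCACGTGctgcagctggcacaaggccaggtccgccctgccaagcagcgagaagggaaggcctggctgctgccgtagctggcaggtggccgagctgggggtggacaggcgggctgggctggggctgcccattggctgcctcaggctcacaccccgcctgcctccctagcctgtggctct
Per1 (chr11:69098699-69098998, plus strand): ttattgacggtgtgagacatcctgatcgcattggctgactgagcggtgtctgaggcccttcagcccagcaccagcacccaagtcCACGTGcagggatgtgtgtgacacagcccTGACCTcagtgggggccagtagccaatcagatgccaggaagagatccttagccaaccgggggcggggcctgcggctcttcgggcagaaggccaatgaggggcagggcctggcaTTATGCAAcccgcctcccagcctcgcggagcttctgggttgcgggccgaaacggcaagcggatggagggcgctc
Per3 (chr4:151044616-151044915, minus strand): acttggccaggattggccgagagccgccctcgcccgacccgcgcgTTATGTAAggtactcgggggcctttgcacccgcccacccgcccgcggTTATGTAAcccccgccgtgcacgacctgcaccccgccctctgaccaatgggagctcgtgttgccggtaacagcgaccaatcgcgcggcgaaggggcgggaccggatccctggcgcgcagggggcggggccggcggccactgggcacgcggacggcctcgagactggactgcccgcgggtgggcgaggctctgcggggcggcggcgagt

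Some dendritic cell genes had a smaller rise under diet at ZT0 than on average at the other times. Of 20 measured genes 6 were called, all below, beside 0.366% of all genes tested. In the fit of all libraries most called genes of any kind were below (82 of 108), a balance that moved with single libraries. In all 6 control ZT0 was called higher than the later control times, and diet ZT0 was not called different from the later diet times. Siglech, a surface marker of plasmacytoid dendritic cells, was at 915, 910.0 and 1268 CPM under diet at ZT0 and 810.3 to 1239 CPM later. On chow it was at 395, 559 and 637 at ZT0, 86.4 and 132 at ZT6, 321 and 68.4 at ZT12 and 112, 63.1 and 52.3 at ZT18 CPM. The log2 change was 0.96 ± 0.37 at ZT0 (adjusted p = 0.0550, and under 0.05 in several other fits) and 3.21 at ZT6, 2.43 at ZT12 and 3.73 at ZT18 (-2.17 ± 0.44, adjusted p = 0.0326). Ccr9, a homing receptor of the same cells, was at 216, 179 and 240.1 CPM in diet libraries, against 79.7, 122 and 106 CPM in control libraries at ZT0, with 21.1 to 54.9 CPM in later control libraries (-1.53 ± 0.30, adjusted p = 0.0297). The dendritic lineage factor Irf8 gave -1.15 ± 0.24, adjusted p = 0.0367 and the cytokine receptor gene Flt3 -1.60 ± 0.34, adjusted p = 0.0387. Itgax, which encodes CD11c, was at 80.4, 79.8 and 90.9 CPM in diet libraries, against 12.4, 27.3 and 16.1 CPM in control libraries at ZT0, against 73.4 to 134 CPM under diet and 5.86 to 8.38 CPM on chow later (-1.72 ± 0.25, adjusted p = 0.00329). The lectin gene Clec10a was at 15.3, 20.0 and 24.8 CPM in diet libraries, against 11.7, 16.9 and 14.9 in control libraries at ZT0, not called there (adjusted p = 0.321), and lower on chow later (1.56 to 7.62 CPM; -2.21 ± 0.39, adjusted p = 0.0196).

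Itgax was stable to single libraries. Between 1 and 7 members of the list were called with a library left out, and 3 without the libraries with adrenal genes (Clec10a, Flt3 and Siglech). The summed dendritic markers were 4151 to 5219 CPM in diet ZT0, against 2159 to 2630 CPM in control ZT0 and 1276 to 1905 CPM in later control libraries. Their part in single genes was not tested. Of 19 antigen presentation genes 3 were below too, beside 0.366% of all genes tested. They were H2-Eb1 (-0.95 ± 0.21, adjusted p = 0.0480, and -0.63 without replicate 2 of control ZT0), Cd74 (-1.001 ± 0.21, adjusted p = 0.0367) and H2-Oa (-1.37 ± 0.29, adjusted p = 0.0387). With a library left out, H2-Eb1 was called in 5 of 22 fits, Cd74 in 12 and H2-Oa in 8.

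Some sterol genes were called as well. Of 26 measured genes 5 were called, all below, beside 0.366% of all genes tested. Sqle, the squalene epoxidase of cholesterol synthesis, was at 35.4, 30.3 and 33.1 CPM in diet libraries, against 36.1, 18.3 and 26.3 CPM in control libraries at ZT0, without a call there (adjusted p = 0.491), and at 24.8 to 56.6 CPM under diet and 5.93 to 13.3 CPM on chow later (-1.65 ± 0.33, adjusted p = 0.0307). Fdft1, the squalene synthase, was at 35.9, 34.7 and 33.7 CPM in diet libraries, against 27.9, 26.7 and 29.8 in control libraries at ZT0, against 32.7 to 55.8 under diet and 13.3 to 22.5 on chow later (-0.84 ± 0.17, adjusted p = 0.0326). Srebf2, the transcription factor of the pathway, was at 65.4, 64.3 and 65.7 CPM in diet libraries, against 55.8, 70.6 and 63.1 in control libraries (-0.80 ± 0.15, adjusted p = 0.0209). Sc5d was lower under diet at ZT0, at 48.6, 35.5 and 44.0 CPM in diet libraries, against 57.9, 59.3 and 57.9 in control libraries (-0.45 ± 0.12; -0.73 ± 0.14, adjusted p = 0.0226). None of the 5 was stable to single libraries, and without replicate 3 of control ZT0 or replicate 2 of diet ZT0 none was called. The list's median log2 change was -0.02 at ZT0 and 0.75, 0.78 and 0.25 at ZT6, ZT12 and ZT18.

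Of 20 bile duct genes 3 were called below, beside 0.366% of all genes tested. The list's median log2 change was 0.82 at ZT0 and 2.34, 2.53 and 2.26 at the later times. Spp1, which encodes osteopontin and is also on the list of lipid-associated macrophages, was at 1234, 1109 and 1004 at ZT0, 4128, 2959.8 and 1813 at ZT6, 4123, 1839.6 and 1729.5 at ZT12 and 1905, 2682 and 2986 at ZT18 CPM under diet and at 789, 574 and 519 at ZT0, 376 and 438 at ZT6, 436 and 281 at ZT12 and 421, 525 and 495 at ZT18 CPM on chow. Every diet ZT0 library was below every later diet library (-1.26 ± 0.26, adjusted p = 0.0295, diet ZT0 minus the mean of the other diet times), and the comparison of diets by time gave -1.87 ± 0.36, adjusted p = 0.0226. The epithelial cadherin gene Cdh1 was at 77.2, 86.0 and 91.6 CPM in diet libraries, against 35.5, 33.2 and 32.6 CPM in control libraries at ZT0, with log2 changes of 1.33 ± 0.23 at ZT0 and 2.85 at ZT6, 2.97 at ZT12 and 2.76 at ZT18 (-1.53 ± 0.28, adjusted p = 0.0196). The sodium pump subunit gene Atp1b1 gave -1.27 ± 0.28, adjusted p = 0.0480 and was called in 5 of 22 fits with a library left out. Without replicate 1 or 2 of diet ZT0 none of the 3 was called, nor without the libraries with adrenal genes. Of 20 lipid-associated macrophage genes 4 were called below, Spp1, Itgax, Capg and Cd36, beside the same share of all genes.

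**Figure D4:**
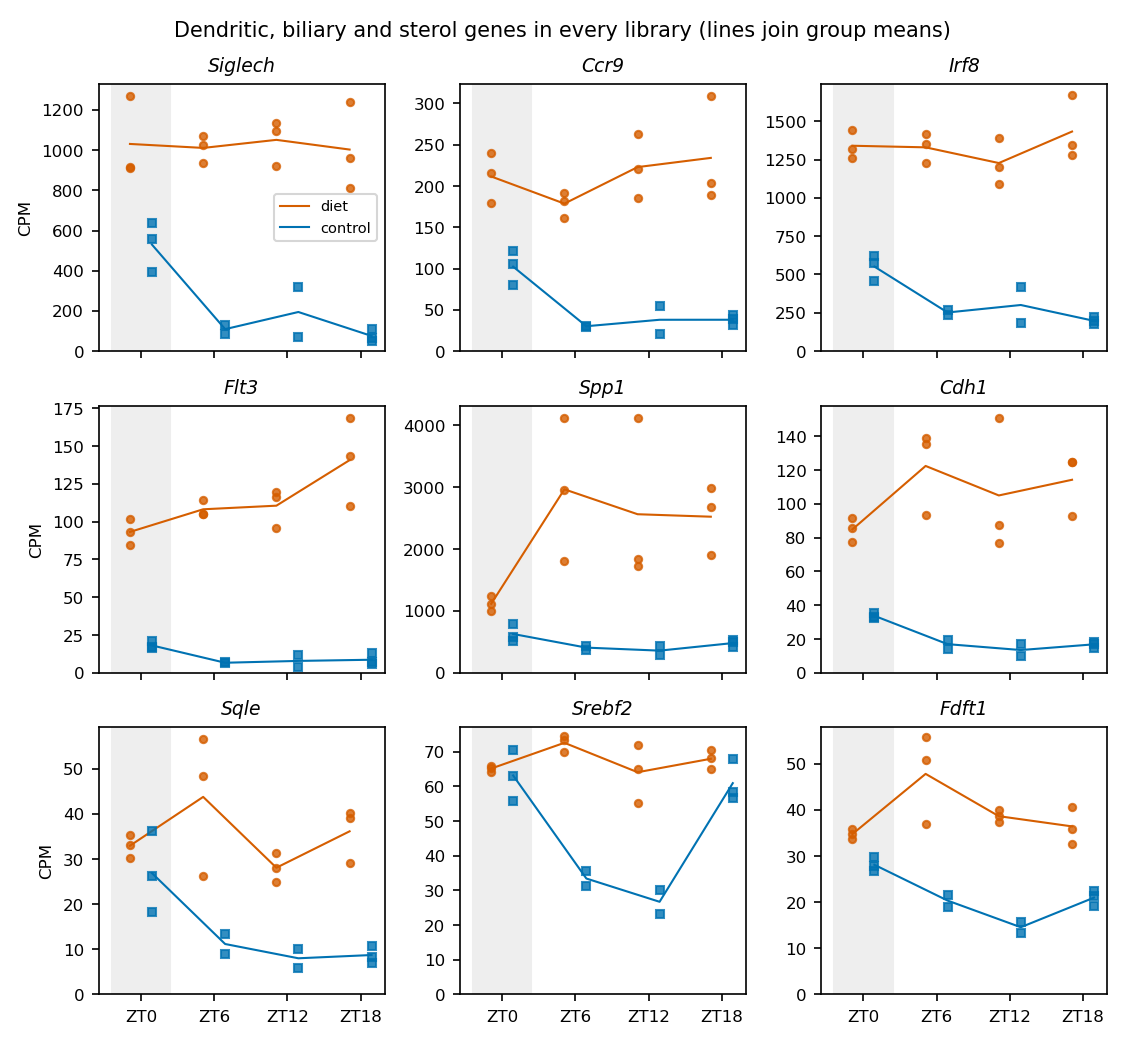
CPM of dendritic, bile duct and sterol genes in every library by zeitgeber time, diet (orange) and control (blue); lines join group means, and the grey band marks ZT0. Control Siglech is at 395 to 637 CPM at ZT0 and 52.3 to 321 CPM later, while diet Spp1 is at 1004 to 1234 CPM at ZT0 and 1730 to 4128 CPM later.

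Other genes above the mean of the later times included Hspa5, the endoplasmic reticulum chaperone BiP, whose ZT0 difference was not above that at ZT12. It was at 891, 912 and 1025 at ZT0, 809, 808 and 752 at ZT6, 819, 771 and 777 at ZT12 and 1193, 1223 and 1323 at ZT18 CPM under diet and at 446, 527 and 529 at ZT0, 1905 and 1539.9 at ZT6, 379 and 407 at ZT12 and 1014, 1133 and 1162 at ZT18 CPM on chow, where it was highest at ZT6 (0.89 ± 0.12, adjusted p = 0.00194). Its log2 change was 0.91 ± 0.10 at ZT0 and -1.13 at ZT6, 1.00 at ZT12 and 0.18 at ZT18. Lpin1, a phosphatidate phosphatase gene, was at 109.7, 118 and 115 CPM in diet libraries, against 69.5, 50.5 and 68.0 CPM in control libraries at ZT0 (0.87 ± 0.16, adjusted p = 0.000201), and its later log2 changes were 0.05 at ZT6, -0.04 at ZT12 and -0.36 at ZT18 (0.98 ± 0.18, adjusted p = 0.0220). Every diet ZT0 library was above every later diet library (49.6 to 87.1 CPM). Akr1c14, an enzyme of steroid reduction, was at 8.49, 3.93 and 5.59 CPM in diet libraries, against 1.15, 1.10 and 2.08 in control libraries at ZT0 (2.57 ± 0.47, adjusted p = 0.0211). These 2 and Egr1, an immediate early factor (1.24 ± 0.27, adjusted p = 0.0451), are the 3 genes called in this comparison among the 748 called at ZT0 and at no other time. None of the 3 was stable to single libraries. With a library left out, Egr1 was called in 7 of 22 fits, Lpin1 in 19 and Akr1c14 in 20. Lpin1 was not called without any one of the diet ZT0 libraries. The uric acid enzyme gene Uox was at 25.6, 19.9 and 23.1 CPM in diet libraries, against 11.8, 12.4 and 15.0 in control libraries (1.51 ± 0.27, adjusted p = 0.0196). The early response gene Ier3 was at 104, 218 and 96.4 CPM in diet libraries, against 59.6, 46.8 and 49.7 in control libraries (2.04 ± 0.37, adjusted p = 0.0196). The chemokine gene Cxcl12 was at 25.8, 55.6 and 33.7 CPM in diet libraries, against 10.6, 6.13 and 6.33 in control libraries (1.72 ± 0.32, adjusted p = 0.0211). The light chain segment Iglv1 was at 74.3, 42.7 and 50.7 CPM in diet libraries, against 6.15, 8.04 and 2.71 in control libraries (1.9996 ± 0.38, adjusted p = 0.0226). Cyp11a1 was above as well (5.63 ± 1.20, adjusted p = 0.0396), with adrenal genes in later control libraries. In the fit without the libraries with adrenal genes, as described above, Cyp11a1 was not called.

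Below the later times, 7 named genes besides Itgax had a smaller rise at ZT0. Pafah1b3, a subunit of a platelet-activating factor hydrolase, was at 51.2, 53.1 and 59.1 CPM in diet libraries, against 18.2, 28.8 and 27.8 CPM in control libraries at ZT0, and at 46.6 to 65.7 CPM under diet and 6.74 to 11.4 CPM on chow later (-1.58 ± 0.22, adjusted p = 0.00248). The adhesion gene Jaml gave -1.62 ± 0.23, adjusted p = 0.00248, Tmem221 -2.02 ± 0.30, adjusted p = 0.00364, the RNA-binding protein gene Rbm47 -1.46 ± 0.23, adjusted p = 0.00682, Srgap3 -1.50 ± 0.26, adjusted p = 0.0159 and the aspartic protease gene Napsa -1.50 ± 0.27, adjusted p = 0.0196. In each of them chow was higher at ZT0 than later. Clec10a, above, is the seventh. Another 4 had a deeper fall at ZT0. Mpzl1, a cell surface protein gene, was at 8.19, 6.86 and 8.61 at ZT0, 21.5, 21.8 and 15.9 at ZT6, 22.2, 15.0 and 13.6 at ZT12 and 11.7, 17.1 and 15.8 at ZT18 CPM under diet and at 93.8, 76.6 and 73.9 at ZT0, 71.99 and 70.6 at ZT6, 34.2 and 28.6 at ZT12 and 51.6, 31.0 and 41.1 at ZT18 CPM on chow (-1.96 ± 0.25, adjusted p = 0.00194). Cd36 was at 264 to 463 CPM in later diet libraries and 631 to 1015 CPM in later control libraries, beside its ZT0 levels above (-0.92 ± 0.16, adjusted p = 0.0159). The ephrin gene Efnb1 (-1.02 ± 0.18, adjusted p = 0.0172) and the basement membrane gene Agrn (-1.18 ± 0.21, adjusted p = 0.0196) were alike, as was Col4a2 (-1.36 ± 0.25, adjusted p = 0.0211). Mpzl1, Pafah1b3, Jaml, Tmem221 and Rbm47 were stable to single libraries, as was Hspa5. Other called members of the lists included the chaperones Dnajb9 (0.92 ± 0.19) and Hsp90ab1 (0.65 ± 0.14) and the kinase gene Pim3 (0.57 ± 0.13) above, and Leo1 (-0.97 ± 0.21), Capg (-0.74 ± 0.16) and Iigp1 (-1.05 ± 0.19) below, with adjusted p of 0.0211 to 0.0476. With a library left out these 6 were called in 5 to 18 of 22 fits.

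**Figure D5:**
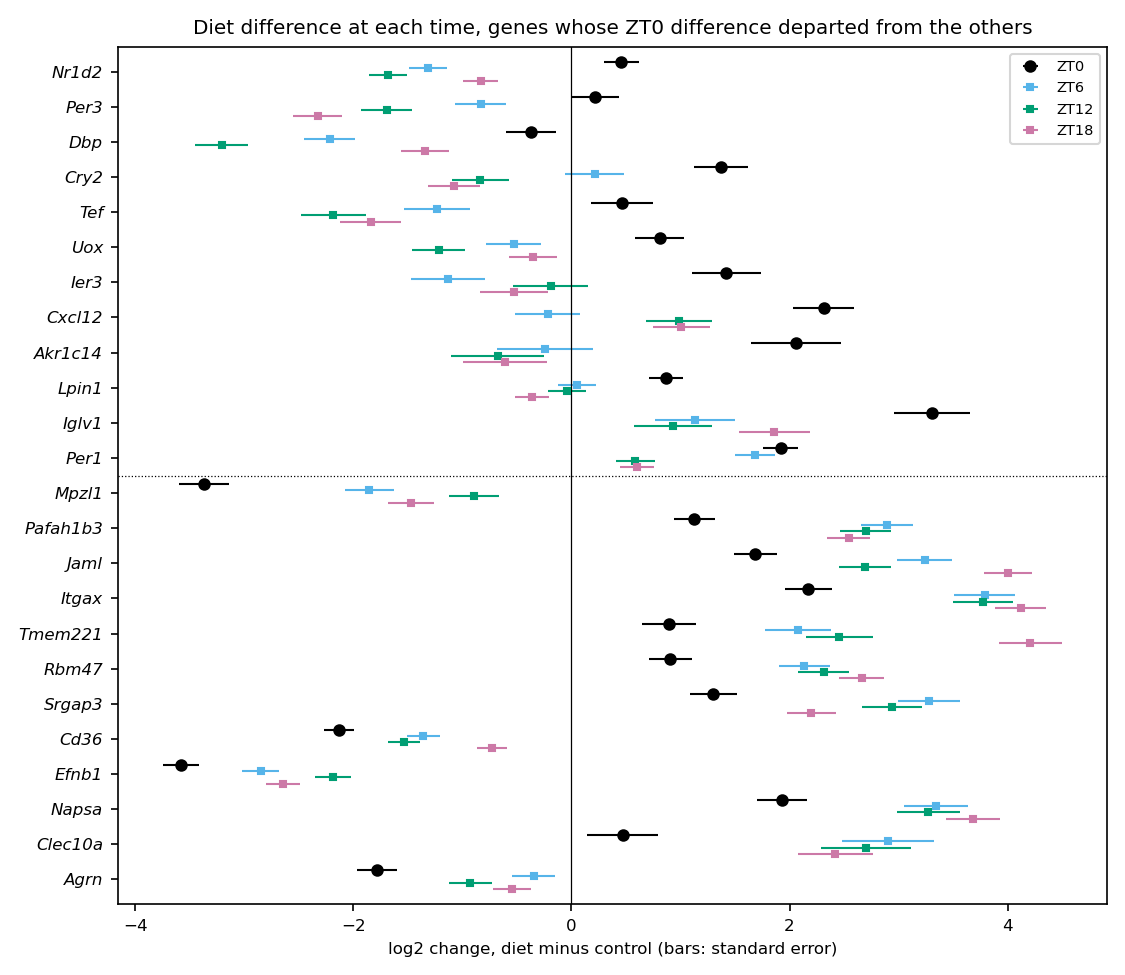
Log2 change of diet over control with its standard error at each of the 4 times, for the 12 genes of each sign with the smallest p in the comparison of times. Only genes with the same sign against each other time were eligible, so ZT0 lies apart from every other time by that choice. It lies above for genes such as Nr1d2, Dbp, Per3, Cry2 and Tef and below for genes such as Mpzl1, Pafah1b3, Itgax and Clec10a.

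Against single times fewer genes differed in 2 of 3 cases. The ZT0 difference was apart from that at ZT6 in 67 genes (0.299%), 42 above and 25 below, or 33 and 65 with library size as the only scaling. It was apart from that at ZT12 in 20 genes (0.0892%), 13 above (0.0580%) and 7 below (0.0312%), or 12 and 19. Against ZT18, 218 genes were called (0.973%), 54 above and 164 below, at a time when every control library held adrenal genes. Against ZT6, Nr1d1, Nr1d2, Dbp and Hspa5 were among those called, and against ZT12 all 9 clock genes were. Of 406 genes not called at ZT0 but called at all 3 later times, 28 were called as different at ZT0, among them Dbp, Per3, Tef, Siglech, Sqle, Fdft1 and Clec10a; for the rest a different effect at ZT0 was not shown.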

How the data were processed

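Total RNA was extracted with a column kit and sequenced on an Illumina instrument, per the labels. How cells were isolated, the gene annotation and the strand setting are not stated in those sources. The deposited table holds raw read counts per gene symbol for 22 libraries, as the authors counted them with HTSeq after STAR 2.7.9a alignment to GRCm38 (mm10), per the submitters' processing notes. The deposited normalised table was not used. Library totals were 19754805 to 41665623 counts, and 20775403 to 28580761 at ZT0.

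Genes were filtered by filterByExpr, scaled by TMM and fitted in 1 model of 8 group means by edgeR 4.0.16 (R 4.3.3), whose quasi-likelihood test with Benjamini-Hochberg adjustment over all genes tested called a gene at an adjusted p under 0.05. CPM is the count scaled to the TMM-adjusted library total. Log2 changes are diet over control, and ± after a log2 change is a standard error. The procedure was also run on simulated counts with known changes in the diet ZT0 libraries only. These held far fewer changed genes than the data and no library that stood apart, so they do not cover such cases. DESeq2 1.42.0, RLE or library size as the scaling, no filter or a mean of at least 5 CPM, single libraries left out, the 6 ZT0 libraries alone and a replicate block were alternatives.

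Of 825 genes in 35 lists 815 were measured. Named were the 12 genes of each sign with the largest log2 change at ZT0 and with the smallest p in the comparison of times (mean of at least 4 CPM, ZT0 ranges apart for the first, same sign against each time for the second), clock genes, up to 4 genes of each list with the smallest p at ZT0, and defining stellate and fibrosis genes. The members and lists were chosen with earlier results of these data known. A few genes that this rule names are not reported here. Exact intervals and floors of 3 counts cover counting error only.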

Additional observations from a re-analysis of the deposited data

Results flagged for a closer look

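The diet minus control difference at ZT0 differed from the mean of the differences at the other 3 times, by edgeR's quasi-likelihood test of that difference with Benjamini-Hochberg adjustment (adjusted p under 0.05), in 51 genes that the report names. Values below are that difference of log2 changes.

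Above the mean of the later times were the clock genes Tef (2.22), Ciart (2.02), Cry2 (1.94), Dbp (1.89), Per3 (1.83), Nr1d2 (1.73), Nr1d1 (1.49) and Per1 (0.96), the stress and chaperone genes Hspa5 (0.89), Dnajb9 (0.92) and Hsp90ab1 (0.65), the early response genes Ier3 (2.04) and Egr1 (1.24), and Cyp11a1 (5.63), Akr1c14 (2.57), Iglv1 (1.9996), Cxcl12 (1.72), Uox (1.51), Lpin1 (0.98) and Pim3 (0.57). Below it were the clock activator gene Arntl (-1.67), the dendritic cell genes Clec10a (-2.21), Siglech (-2.17), Itgax (-1.72), Flt3 (-1.60), Ccr9 (-1.53) and Irf8 (-1.15), the antigen presentation genes H2-Oa (-1.37), Cd74 (-1.001) and H2-Eb1 (-0.95), the sterol genes Sqle (-1.65), Fdft1 (-0.84), Srebf2 (-0.80) and Sc5d (-0.73), the bile duct genes Spp1 (-1.87), Cdh1 (-1.53) and Atp1b1 (-1.27), and the matrix genes Col4a2 (-1.36) and Agrn (-1.18). Other genes below were Tmem221 (-2.02), Mpzl1 (-1.96), Jaml (-1.62), Pafah1b3 (-1.58), Napsa (-1.50), Srgap3 (-1.50), Rbm47 (-1.46), Iigp1 (-1.05), Efnb1 (-1.02), Leo1 (-0.97), Cd36 (-0.92) and Capg (-0.74). The differences of Hspa5, Nr1d1 and Pim3 were not above those of every later time: Hspa5 was not above ZT12, and Nr1d1 and Pim3 were not above ZT18. Single libraries within a group of 2 or 3 were not screened gene by gene, and replicate 2 of control ZT0 stood apart as described above.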

How the results depend on the processing

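The number of genes called at ZT0 stayed within 1.5 times under the alternatives, while the balance of higher and lower genes moved with the scaling. The number of genes called was 6719, against 7621 by DESeq2 (6666 shared), 6748 with RLE scaling and 6738 with library size only. It was 6095 among genes with a mean of at least 5 CPM, 6398 with no filter and 6033 with only the ZT0 libraries. Without replicate 2 of control ZT0 and replicate 1 of control ZT18 it was 7343. These 2 are named below as the control libraries set aside. The spread between replicates was given at ZT0 only, so no value here sets the second apart. No named gene that was called changed direction in any of these fits or with a library left out.

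The comparison of times was less stable. The count of 108 became 484 by DESeq2, 175 with library size only, 173 at a mean of at least 5 CPM, 884 with no filter, 445 without those outlying libraries and 36 without the libraries with adrenal genes; the last 2 were chosen after seeing the data. Against ZT6 alone (67 genes) the counts were 370 by DESeq2, 114 at a mean of at least 5 CPM, 846 with no filter and 117 without the control libraries set aside. Against ZT12 (20 genes) they were 210, 46, 586 and 96 in that order, with 31 for library size only and 34 with the replicate block. Against ZT18 (218 genes) they were 701 by DESeq2, 1163 with no filter and 954 without the control libraries set aside. Diet ZT0 against the other diet times (154 genes) gave 621 by DESeq2, 452 with library size only, 1013 with no filter and 388 without the control libraries set aside. Control ZT0 against the other control times (365 genes) gave 771 by DESeq2 and 1084 with no filter. The causes were not tested.

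With 1 library left out, the counts of calls ranged over 5504 to 7094 at ZT0, 4890 to 6988 at ZT6, 4659 to 6920 at ZT12 and 5945 to 7205 at ZT18. For the comparison of times they were 20 to 388, against single times 28 to 111 (ZT6), 13 to 87 (ZT12) and 26 to 1069 (ZT18), and 27 to 398 and 269 to 414 for ZT0 within diet and within control. Where a group was left with 1 library, it was assumed to vary like the other groups. Of the values of named genes at ZT0 with a library left out, 32 lost the threshold, 11 gained it and 4577 did neither; under the other alternatives these were 19, 17 and 2036. Of the comparison of times, 271 of 1122 values lost it with a library left out and 53 of 407 otherwise.

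Same-numbered diet and control libraries at ZT0 did not deviate together (Pearson r of -0.12, -0.14 and 0.05 across genes). Not every library correlated best with its own number. No pairing by number was seen, though 3 libraries in each group cannot exclude it. With the replicate block 6608 genes were called at ZT0 and 101 in the comparison of times, and 5377 in the block fit of the ZT0 libraries alone. Group sizes of 2 or 3 and low counts limit the precision.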
